A study of Mus musculus with 24 samples.

Results

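Myeloid transcription factors are described here as 8 genes, Spi1, Cebpa, Cebpb, Cebpd, Cebpe, Irf8, Irf5 and Maf, of the 29716 genes in the count table. They were matched by gene name in the deposited annotation, and their values come from the raw counts. The study sorted CD31+ cells from C57BL/6J mouse embryos at stage E10.5 and sequenced their polyA RNA, and its title concerns how the Notch ligand Dll4 limits the entry of hemogenic cells into clusters in the aorta. Embryos were injected into the heart with anti-Dll4 or with anti-human IgG as the control. Incubation followed for 5 hours at 37 °C under 5% CO2, in a myeloid long-term medium holding that antibody at 5 µg/ml. IL-3 at 10 ng/ml and hydrocortisone at 10 µM were present in every group, so no library shows these genes without a cytokine and a glucocorticoid. There were 3 sorted populations, Kit+ CD45+ cells, Kit+ CD45- cells and Kit- CD41+ CD45- cells, each with 4 anti-Dll4 and 4 IgG libraries, 24 in all. The labels do not say how many embryos went into a library, so p-values measure only the spread between these libraries, which may be technical.

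Spi1 encodes PU.1, an ETS factor that opens chromatin at myeloid enhancers and is needed for macrophages and B cells. The C/EBP family of leucine zipper factors acts beside it: C/EBPα in the step to granulocyte and monocyte progenitors, C/EBPβ and C/EBPδ in macrophages and in inflammation, and C/EBPε late in granulocytes, where it drives secondary granule genes. IRF8 pairs with PU.1 and directs progenitors towards monocytes and dendritic cells, IRF5 acts downstream of Toll-like receptors, and c-MAF is a factor of tissue macrophages. In the mouse embryo at midgestation the first macrophages come from the yolk sac, and CD45 appears on blood cells as they mature.

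Of the members, 6, namely Spi1, Cebpb, Cebpd, Irf8, Irf5 and Maf, passed the filter on low counts, which kept 15618 genes, and 2, Cebpa and Cebpe, did not. All 6 were higher in Kit+ CD45+ cells than in either other population under either antibody, where 10.0 to 20.4% of all genes were higher. None passed the threshold between anti-Dll4 and IgG in any population, where at most 0.00640% of all genes did. Among libraries of Kit+ CD45+ cells, 1 IgG library had far less Maf than the other 7 while its Spi1 level lay within their range. Levels are given as CPM, each count being divided by its scaled library size, and the plot of log2 CPM shows each library.

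**Figure D1:**
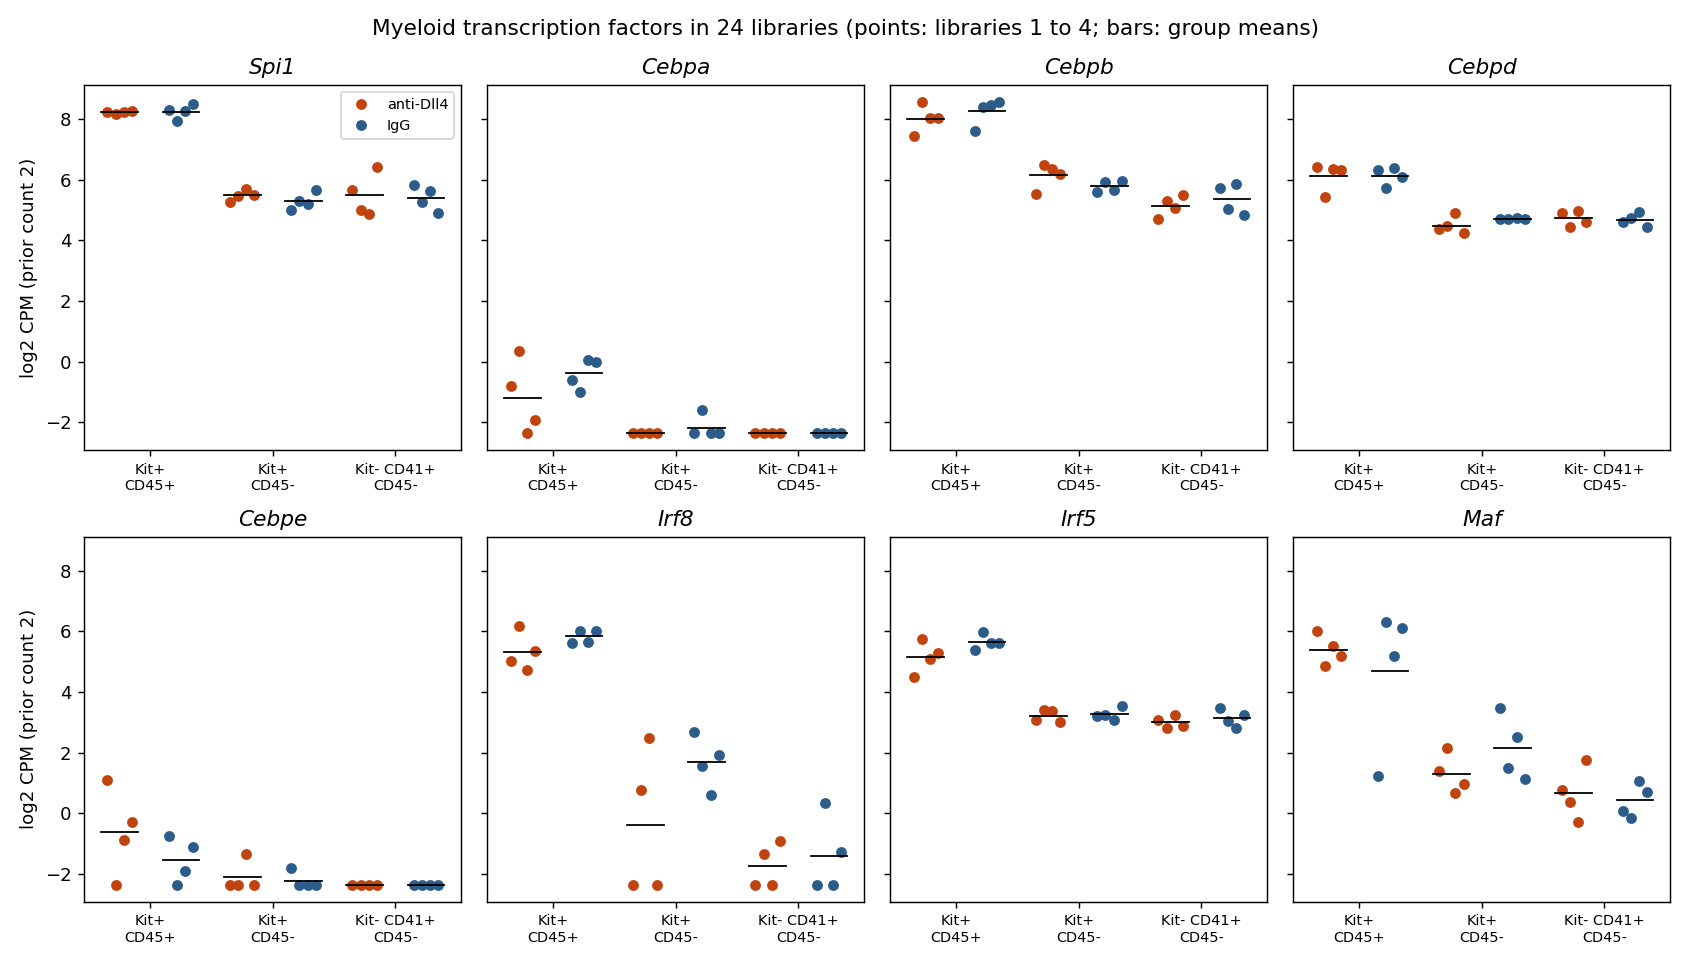
Level of each of the 8 members, as log2 CPM with a prior count of 2, in all 24 libraries by sorted population (x axis) and antibody (colour, anti-Dll4 left of IgG), with 4 points per group and a bar at the mean. Kit+ CD45+ libraries stand highest, Cebpa and Cebpe lie near the lower limit throughout, and 1 Kit+ CD45+ IgG point for Maf sits among the libraries of the other populations.

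Library totals ran from 8718351 to 11379830 counts. Ptprc, which encodes CD45, averaged 79.1 ± 21.6 CPM under anti-Dll4 and 82.3 ± 33.0 CPM under IgG in Kit+ CD45+ cells (SD, n = 4 each), and its group means were at most 0.811 CPM in the other 2 populations. Globin genes took 0.00815 to 0.0226% of the counts in Kit+ CD45+ libraries, 16.8 to 49.3% in Kit+ CD45- libraries and 4.17 to 14.1% in Kit- CD41+ CD45- libraries. Ddx3y, a Y-linked gene, had 523 to 1244 counts in the 3 anti-Dll4 libraries numbered 1 and at most 15 in the other 21. Kit+ CD45+ IgG replicate 1 also stood apart, with no Gata1 count and a macrophage marker sum of 365 CPM, against 2580 to 3870 CPM in the other IgG libraries and 1570 to 3400 CPM under anti-Dll4. The antibody differences of Maf, Cebpb and Irf5 in Kit+ CD45+ cells, the ratio of Spi1 to Gata1 and the spread of Maf are given with and without that library. In bulk RNA, fewer cells of a type and less RNA per cell cannot be told apart, which holds for every level below.

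Promoter windows from RefSeq (GRCm38.p6, 250 bases before to 50 after a gene start) were at hand for 4 of the 8 members, Cebpa, Cebpb, Irf8 and Irf5. They are shown because these 4 genes all had their highest means in Kit+ CD45+ cells but at very unequal levels, with Cebpb at the top of the set and Cebpa near no counts. All lie on the plus strand, with Cebpa at chr7:35119043-35119342, Cebpb at chr2:167688665-167688964, Irf8 at chr8:120736108-120736407 and Irf5 at chr6:29526375-29526674. Capitals mark a match to 1 of 6 short motifs searched on both strands.
Cebpb: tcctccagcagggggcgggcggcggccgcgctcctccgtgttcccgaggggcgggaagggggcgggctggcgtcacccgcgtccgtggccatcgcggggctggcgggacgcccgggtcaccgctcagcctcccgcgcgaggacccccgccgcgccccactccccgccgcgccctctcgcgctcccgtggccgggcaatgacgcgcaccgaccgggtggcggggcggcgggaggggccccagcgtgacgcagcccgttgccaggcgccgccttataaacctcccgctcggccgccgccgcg
Cebpa: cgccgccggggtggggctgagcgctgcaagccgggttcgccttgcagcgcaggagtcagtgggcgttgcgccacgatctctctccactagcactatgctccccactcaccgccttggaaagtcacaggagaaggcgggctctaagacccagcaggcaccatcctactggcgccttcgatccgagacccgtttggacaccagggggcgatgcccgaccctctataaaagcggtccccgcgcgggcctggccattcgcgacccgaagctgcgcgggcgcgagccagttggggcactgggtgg
Irf8: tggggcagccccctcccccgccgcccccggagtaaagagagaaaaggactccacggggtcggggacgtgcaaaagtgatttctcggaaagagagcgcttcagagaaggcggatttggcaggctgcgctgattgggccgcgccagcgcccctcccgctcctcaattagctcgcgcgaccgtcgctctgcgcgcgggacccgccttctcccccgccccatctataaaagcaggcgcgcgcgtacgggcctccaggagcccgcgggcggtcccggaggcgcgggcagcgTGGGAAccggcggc
Irf5: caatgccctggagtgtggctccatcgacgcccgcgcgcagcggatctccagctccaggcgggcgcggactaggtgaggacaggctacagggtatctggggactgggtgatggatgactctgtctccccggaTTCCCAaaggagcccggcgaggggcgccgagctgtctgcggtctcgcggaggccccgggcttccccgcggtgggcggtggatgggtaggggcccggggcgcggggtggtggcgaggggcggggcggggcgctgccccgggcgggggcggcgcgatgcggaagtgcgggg
The only matches in these windows were to the motif of RBPJ, the DNA-binding partner of Notch, TGGGAA. It stood 36 bases after the start of Irf8, and its reverse complement, TTCCCA, 119 bases before the start of Irf5. That motif occurs in 25.6% of all 32851 promoter windows of this length. No window of the 4 held GAGGAA for PU.1 (28.3% of all windows do), TTGCNNAA for C/EBP (10.8%), the composite ETS and IRF element of PU.1 with an IRF (2.72%), the repeated GAAA element of IRFs (3.44%) or TGCTGA for MAF (19.5%). The ETS and IRF element and the IRF element can overlap, and a further window of Irf8 held 1 match each for MAF and RBPJ. A match is a description of letters and not of a bound site. G and C made up 80.7% of the Cebpb window, 67.3% of the Cebpa window, 70.0% of the Irf8 window and 74.7% of the Irf5 window, against a median of 52.7% over all windows.

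Spi1 (ENSMUSG00000002111.8, mm10 chromosome 2, 91082390 to 91115756) spanned the narrowest range of the members over the 8 Kit+ CD45+ libraries, with the highest 1.48-fold over the lowest. Kit+ CD45+ cells had 305, 290, 300 and 310 CPM of Spi1 in anti-Dll4 libraries 1 to 4, against 316, 244, 309 and 361 CPM in IgG libraries 1 to 4. The groups overlapped, and every one of these libraries stood above every library of the other populations. Kit+ CD45- cells held 31.5 to 52.0 CPM and Kit- CD41+ CD45- cells 29.3 to 84.8 CPM of Spi1, over 8 libraries each. Spi1 was thus measured in both populations with little or no Ptprc transcript, over ranges that overlapped. Under IgG, Spi1 was higher by 2.96 on the log2 scale in Kit+ CD45+ than in Kit+ CD45- cells (SE 0.26, adjusted p = 1.87e-08), and under anti-Dll4 by 2.75 (SE 0.26, adjusted p = 4.22e-08).

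Among the C/EBP genes, Cebpb (ENSMUSG00000056501.3, chromosome 2, 167688915 to 167690418, 1 exon) had the highest level. Kit+ CD45+ cells had 174, 377, 264 and 262 CPM of Cebpb in anti-Dll4 libraries 1 to 4, against 197, 340, 352 and 383 CPM in IgG libraries 1 to 4. Library 1 was lowest under each antibody, and the groups overlapped. Kit+ CD45- cells held 45.9 to 89.9 CPM and Kit- CD41+ CD45- cells 25.8 to 58.2 CPM of Cebpb. The log2 difference of Kit+ CD45+ from Kit+ CD45- cells was 2.52 under IgG (SE 0.27, adjusted p = 3.96e-07) and 1.89 under anti-Dll4 (SE 0.27, adjusted p = 1.13e-05). Tmem189, on the opposite strand, overlaps Cebpb, and it averaged 122 ± 36.2 and 143 ± 34.4 CPM in anti-Dll4 and IgG libraries of Kit+ CD45+ cells, with group means of 41.4 to 48.1 CPM elsewhere. Whether the counting used strand is not given in the sources used here, so reads of these overlapping genes cannot be told apart.

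Cebpd (ENSMUSG00000071637.5, chromosome 16, 15887286 to 15891031) differed least between populations. It had 85.2, 43.2, 80.9 and 79.4 CPM in anti-Dll4 libraries 1 to 4 of Kit+ CD45+ cells, against 80.3, 53.4, 83.2 and 67.2 CPM in IgG libraries 1 to 4. Library 2 was lowest under both antibodies. Kit+ CD45- cells held 18.6 to 29.4 CPM and Kit- CD41+ CD45- cells 21.6 to 31.0 CPM of Cebpd, so these populations overlapped throughout. Cebpd was higher in Kit+ CD45+ than in Kit+ CD45- cells by 1.46 on the log2 scale under IgG (SE 0.2, adjusted p = 9.23e-06) and by 1.67 under anti-Dll4 (SE 0.2, adjusted p = 1.25e-06). Spidr, which overlaps Cebpd on the opposite strand, had group means between 45.4 and 57.9 CPM over the 6 groups.

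The granulocyte members of the family were near the limit of detection. Cebpa (ENSMUSG00000034957.10, chromosome 7, 35119293 to 35121928) had 4, 14, 0 and 1 counts in anti-Dll4 libraries 1 to 4 of Kit+ CD45+ cells, against 7, 4, 11 and 9 counts in IgG libraries 1 to 4. The sums were 19 under anti-Dll4 and 31 under IgG, beside 1 count over all 8 Kit+ CD45- libraries and 0 over all 8 Kit- CD41+ CD45- libraries. Under IgG its mean of 0.603 CPM in Kit+ CD45+ cells was at least 2.09-fold higher than in Kit- CD41+ CD45- cells, against a floor of 3 counts per library, and under anti-Dll4 its mean of 0.382 CPM was at least 1.22-fold higher. The anti-Dll4 bound rests on replicate 2, which held 14 of the 19 counts: without it the mean, 0.148 CPM, lay under the floor of 0.313 CPM and gives no bound. Cebpe (ENSMUSG00000052435.6, chromosome 14, 54710363 to 54712174, minus strand) had 21, 0, 4 and 9 counts in anti-Dll4 libraries and 6, 0, 1 and 3 counts in IgG libraries of Kit+ CD45+ cells. It had 2 counts under anti-Dll4 and 1 under IgG over Kit+ CD45- libraries and none over Kit- CD41+ CD45- libraries, and under anti-Dll4 its mean of 0.733 CPM was at least 2.34-fold above that floor. That bound rests on replicate 1, which held 21 of the 34 counts, and it was 1.04-fold without that library. Mpo, a primary granule enzyme that granulocyte and monocyte progenitors make, was abundant in the same Kit+ CD45+ cells, at 235 ± 88.4 CPM under anti-Dll4 and 240 ± 145 CPM under IgG. The library with the most Cebpe counts, anti-Dll4 replicate 1, had a secondary granule marker sum of 51.7 CPM, against 2.71 to 12.8 CPM in the other 7 Kit+ CD45+ libraries. The libraries next by Cebpe, anti-Dll4 replicate 4 with 9 counts and IgG replicate 1 with 6, had sums of 4.98 and 4.66 CPM. The high sum is thus that of 1 library, and of the 7 markers 1 passed the filter.

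Irf8 (ENSMUSG00000041515.9, chromosome 8, 120736358 to 120756694) had the widest differences between populations. Kit+ CD45+ cells had 32.2, 72.8, 26.6 and 41.1 CPM of Irf8 in anti-Dll4 libraries 1 to 4, against 49.2, 64.5, 50.3 and 65.0 CPM in IgG libraries 1 to 4. The IgG libraries lay within the range of the anti-Dll4 libraries. Kit+ CD45- cells had 0, 12, 54 and 0 counts of Irf8 in anti-Dll4 libraries and 67, 20, 12 and 29 counts in IgG libraries. Kit- CD41+ CD45- cells had 0, 2, 0 and 3 counts of Irf8 in anti-Dll4 libraries and 0, 12, 0 and 2 counts in IgG libraries. Irf8 thus had counts in every Kit+ CD45- IgG library, in 2 of the 4 Kit+ CD45- anti-Dll4 libraries and in 4 of the 8 Kit- CD41+ CD45- libraries. Its log2 difference of Kit+ CD45+ from Kit+ CD45- cells was 4.02 under IgG (SE 0.7, adjusted p = 0.000196) and 4.46 under anti-Dll4 (SE 0.73, adjusted p = 7.22e-05).

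Irf5 (ENSMUSG00000029771.12, chromosome 6, 29526625 to 29541871) was present everywhere at a lower level. Kit+ CD45+ cells had 22.3, 53.4, 34.1 and 38.7 CPM of Irf5 in anti-Dll4 libraries 1 to 4, against 42.0, 63.2, 49.5 and 49.4 CPM in IgG libraries 1 to 4. Of the anti-Dll4 libraries, 3 lay below every IgG library and library 2 lay within their range. Kit+ CD45- cells held 7.87 to 11.3 CPM and Kit- CD41+ CD45- cells 6.85 to 10.9 CPM of Irf5, a narrow band over 16 libraries. The log2 difference of Kit+ CD45+ from Kit+ CD45- cells was 2.43 under IgG (SE 0.23, adjusted p = 3.51e-08) and 2.0 under anti-Dll4 (SE 0.22, adjusted p = 5.24e-07). Tnpo3, which overlaps the end of Irf5 on the opposite strand, had group means between 45.5 and 74.0 CPM over the 6 groups.

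Maf (ENSMUSG00000055435.6, chromosome 8, 115682942 to 115707794, minus strand) had the widest spread of the 6 tested members between the IgG libraries of Kit+ CD45+ cells. Kit+ CD45+ cells had 65.0, 28.6, 45.4 and 36.3 CPM of Maf in anti-Dll4 libraries 1 to 4, against 2.13, 78.6, 36.3 and 68.9 CPM in IgG libraries 1 to 4. IgG library 1, with 32 counts, stood within the range of Kit+ CD45- cells, which held 1.4 to 10.9 CPM over 8 libraries. Kit- CD41+ CD45- cells held 0.627 to 3.22 CPM of Maf. Under IgG, Maf was higher by 3.12 on the log2 scale in Kit+ CD45+ than in Kit+ CD45- cells (SE 0.68, adjusted p = 0.00191), and under anti-Dll4 by 4.13 (SE 0.74, adjusted p = 0.000177). Without Kit+ CD45+ IgG replicate 1 the IgG difference was 3.52 (adjusted p = 1.94e-05), and without every library numbered 2 it was 2.52 (adjusted p = 0.055).

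Scaled by exon length (GENCODE M21, where Cebpe and Irf8 carry another version of the gene model than the files), which allows a comparison between genes, the members of Kit+ CD45+ cells fell into levels far apart. Cebpb averaged 179 ± 55.4 CPM per kb under anti-Dll4 and 211 ± 54.8 under IgG, and Spi1 averaged 112 ± 3.22 under anti-Dll4 and 114 ± 17.9 under IgG (SD, n = 4 each). Cebpd stood at 19.3 ± 5.19 and 19.0 ± 3.65 CPM per kb, and Irf5 at 12.8 ± 4.43 and 17.6 ± 3.05, under anti-Dll4 and IgG. Irf8 and Maf followed, with means between 5.32 and 8.12 CPM per kb. Cebpa and Cebpe were lowest, with means between 0.145 and 0.591 CPM per kb. Cebpe had no counts in 1 library under each antibody, and Cebpa had none in 1 anti-Dll4 library.

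**Figure D2:**
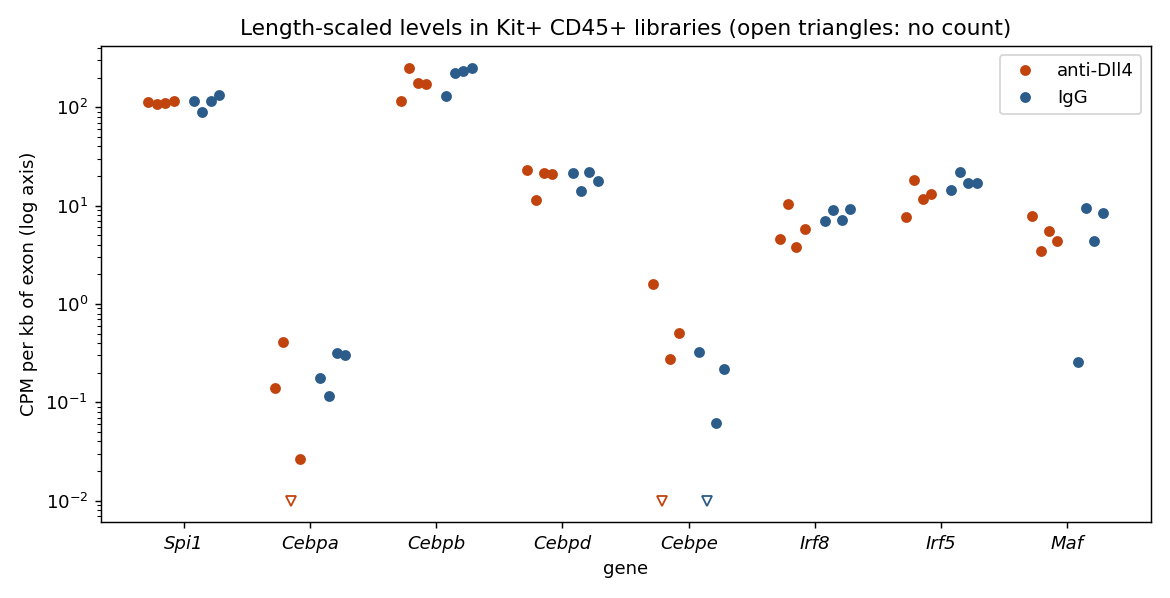
Level of each member in the 8 Kit+ CD45+ libraries, as CPM per kb of exon on a log axis, with anti-Dll4 left of IgG and 4 points per group; open triangles at the bottom stand for libraries with no count. Cebpb and Spi1 stand at the top, and 1 Maf point under IgG sits below the other Maf points.

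Kit+ CD45+ cells were higher than Kit+ CD45- cells for 6 of 6 tested members under anti-Dll4, where 16.6% of all genes were higher and 12.6% lower. The same held for 6 of 6 under IgG, where 10.0% of all genes were higher and 9.18% lower. Against Kit- CD41+ CD45- cells, 6 of 6 members were higher under anti-Dll4 (20.4% of all genes higher, 17.3% lower) and 6 of 6 under IgG (19.7% higher, 17.5% lower). The median log2 difference of the 6 from Kit+ CD45- cells was 2.38 under anti-Dll4 and 2.74 under IgG, beside medians over all genes of 0.1 and 0.04. From Kit- CD41+ CD45- cells it was 2.77 under anti-Dll4 and 2.85 under IgG, beside 0.06 and 0.05. These comparisons share the Kit+ CD45+ libraries, so they are not separate evidence. The 6 are the members that passed the filter on low counts, and the count says nothing of Cebpa and Cebpe.

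The difference from Kit- CD41+ CD45- cells was widest for Irf8, at 8.24 on the log2 scale under anti-Dll4 (SE 0.99, adjusted p = 5.43e-07) and 7.38 under IgG (SE 0.89, adjusted p = 5.06e-07). These fitted values rest on 5 counts of Irf8 over 4 anti-Dll4 libraries and 14 over 4 IgG libraries of Kit- CD41+ CD45- cells. Maf differed by 4.76 (SE 0.76) under anti-Dll4 and 5.25 (SE 0.78) under IgG. Cebpb differed by 2.91 (SE 0.28) and 2.88 (SE 0.28), Spi1 by 2.62 (SE 0.26) and 2.82 (SE 0.26), Irf5 by 2.23 (SE 0.22) and 2.53 (SE 0.23), and Cebpd by 1.43 (SE 0.2) and 1.47 (SE 0.2), under anti-Dll4 and IgG. For 5 of the members, Spi1, Cebpb, Cebpd, Irf8 and Irf5, all 8 Kit+ CD45+ libraries stood above all 16 others, which 3.02% of all tested genes did. Maf missed this by the single IgG library named above.

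Markers of macrophages moved with these differences. Their summed level over 20 genes ran from 1570 to 3400 CPM in anti-Dll4 and from 365 to 3870 CPM in IgG libraries of Kit+ CD45+ cells. It ran from 71.4 to 107 CPM under anti-Dll4 and from 82.3 to 154 CPM under IgG in Kit+ CD45- cells, where Adgre1, Ctss, Ms4a7 and Cd163 were at 0 in all 8 libraries. Cd163 was also at 0 in every Kit+ CD45+ anti-Dll4 library and every Kit- CD41+ CD45- library. In Kit- CD41+ CD45- cells the summed level ran from 677 to 836 CPM under anti-Dll4 and from 644 to 886 CPM under IgG, of which Fcer1g, also a platelet transcript, made up 83.9% and 83.2%. All 19 tested markers were higher in Kit+ CD45+ than in Kit+ CD45- cells under each antibody. Over all genes 16.6% were higher under anti-Dll4 and 10.0% under IgG. A marker at 0 in Kit+ CD45- cells could pass the filter only through another group, so the filter partly set this count. Against Kit- CD41+ CD45- cells 18 of the 19 were higher and 1 lower under anti-Dll4, and 17 higher and 0 lower under IgG. The shares of all genes there were 20.4% higher and 17.3% lower under anti-Dll4, and 19.7% and 17.5% under IgG. Immediate early genes, a sign of dissociation, summed to 624 to 1540 CPM under anti-Dll4 and 1070 to 1610 CPM under IgG in Kit+ CD45+ cells, against 283 to 547 CPM and 388 to 558 CPM in Kit+ CD45- cells. The part of either in the members' differences was not tested.

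Between the populations without CD45, only Irf8, Cebpb and Maf passed the threshold in at least 1 comparison. Under anti-Dll4, 2 of 6 members were higher in Kit+ CD45- than in Kit- CD41+ CD45- cells, where 14.7% of all genes were higher and 15.2% lower. These were Cebpb, by 1.02 on the log2 scale (SE 0.26, adjusted p = 0.0046), and Irf8, by 3.78 (SE 1.14, adjusted p = 0.0143). Under IgG, 2 of 6 were higher, where 14.0% of all genes were higher and 13.8% lower. These were Irf8, by 3.37 (SE 0.9, adjusted p = 0.00677), and Maf, by 2.13 (SE 0.75, adjusted p = 0.0364). Without Kit+ CD45- anti-Dll4 replicate 3, which held 54 of the 66 Irf8 counts of its group, Irf8 differed by 2.06 under anti-Dll4 (adjusted p = 0.263). Without Kit+ CD45- IgG replicate 1, which held 118 of the 202 Maf counts of its group, Maf differed by 1.48 under IgG (adjusted p = 0.192). Counting that IgG replicate 1, the Maf call ended without any 1 of 5 single libraries of the 2 groups (adjusted p = 0.0623 to 0.192). Without the libraries numbered 1, neither Maf (1.34, adjusted p = 0.108) nor Irf8 (2.46, adjusted p = 0.0588) passed under IgG, and Maf did not pass without those of any other number (adjusted p = 0.0634 to 0.101). Without those numbered 3, neither Irf8 (1.65, adjusted p = 0.402) nor Cebpb (0.89, adjusted p = 0.0625) passed under anti-Dll4.

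Spi1, Cebpd and Irf5 did not pass in that comparison under either antibody. The 95% interval of the log2 difference of Kit+ CD45- from Kit- CD41+ CD45- cells was -0.66 to 0.39 under anti-Dll4 and -0.67 to 0.38 under IgG for Spi1. For Cebpd it was -0.65 to 0.18 and -0.4 to 0.42, and for Irf5 -0.24 to 0.71 and -0.37 to 0.57, under anti-Dll4 and IgG. Differences inside these bounds were not resolved at this depth and number of libraries. Ordered by mean, the Kit+ CD45+ groups were first for every member, and each next pair of groups overlapped in range except the step from Kit+ CD45+ to the rest for Spi1, Cebpb, Cebpd, Irf8, Irf5 and Maf. That step is between the anti-Dll4 and the next group for 5 of these, and between the IgG and the next group for Cebpd.

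**Figure D3:**
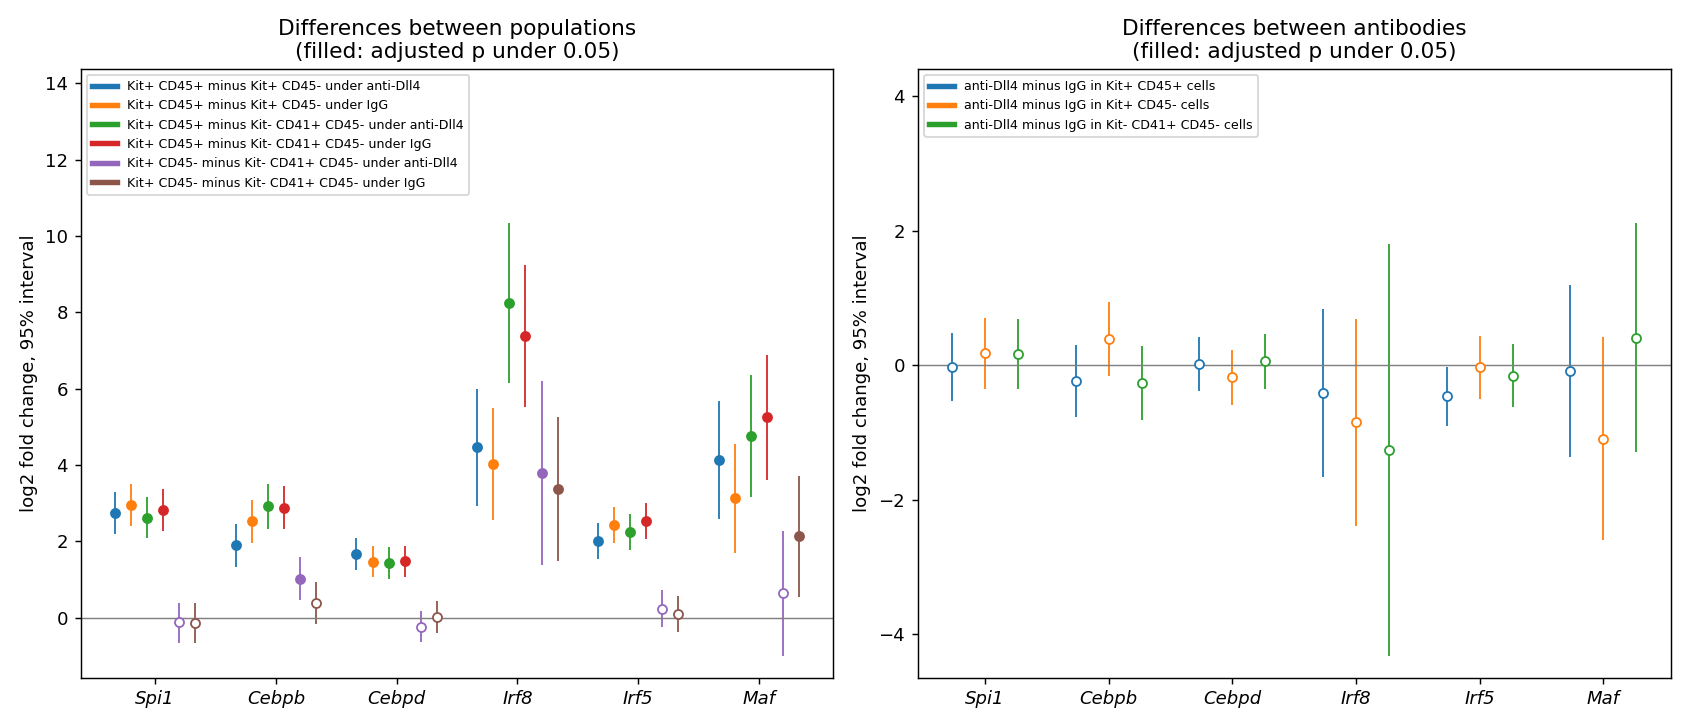
Log2 fold changes with 95% intervals (y axis) for the 6 tested members (x axis) in 6 comparisons of populations (left) and 3 of antibodies (right), each first-named group over the second; filled points have an adjusted p under 0.05. All points of Kit+ CD45+ against another population lie above 0 with intervals above 0, and every antibody point is open.

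Anti-Dll4 against IgG asks whether blocking the ligand for 5 hours changed these factors. None of the 6 tested members passed the threshold in Kit+ CD45+ cells, where 0.00640% of all genes did, in Kit+ CD45- cells, where 0% did, or in Kit- CD41+ CD45- cells, where 0% did. None passed in the mean effect over the 3 populations (0% of all genes) or in the difference of the effect between populations (0.0256%). Few genes of any kind were called: edgeR gave 453, 1733 and 435 genes at an unadjusted p under 0.05 in Kit+ CD45+, Kit+ CD45- and Kit- CD41+ CD45- cells, and DESeq2 called 14, 75 and 2 genes in them. For the mean effect the unadjusted number was 1311 and the DESeq2 number 31, and for the difference between populations 631 and 25. DESeq2 and the other alternatives called no member in any of these 5 comparisons.

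In Kit+ CD45+ cells the log2 difference of anti-Dll4 from IgG libraries was -0.03 for Spi1 (95% interval -0.54 to 0.48) and 0.02 for Cebpd (-0.38 to 0.42). For Cebpb it was -0.24 (-0.77 to 0.3), for Irf8 -0.41 (-1.66 to 0.84) and for Maf -0.08 (-1.36 to 1.19). The intervals of Irf8 and Maf were the widest of the 6. Irf5 came nearest to a difference, at -0.46 (-0.9 to -0.02), with an unadjusted p = 0.0391 and an adjusted p = 1 in edgeR's test. Without anti-Dll4 replicate 1, the Kit+ CD45+ library with the Ddx3y counts, Irf5 differed by -0.28, and without anti-Dll4 replicate 2 by -0.69. Without IgG replicate 1, Irf5 differed by -0.54, Cebpb by -0.41 and Maf by -0.48. Without anti-Dll4 replicate 1, Cebpb differed by -0.08 and Maf by -0.34. Maf turned positive, to 0.29 without IgG replicate 2, to 0.17 without IgG replicate 4 and to 0.07 without anti-Dll4 replicate 2.

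In Kit+ CD45- cells no member passed, and Maf had the lowest estimate, -1.1 (95% interval -2.61 to 0.42, adjusted p = 0.56). Its counts there were 18, 34, 14 and 8 under anti-Dll4 and 118, 19, 49 and 16 under IgG. The groups overlapped. Irf8 was at -0.85 (-2.39 to 0.69) and Cebpb at 0.39 (-0.16 to 0.94) in the same cells. In Kit- CD41+ CD45- cells the estimates for Spi1, Cebpb, Cebpd and Irf5 lay between -0.27 and 0.17, and those of Irf8 and Maf rested on at most 29 counts per library.

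Libraries of the same Kit+ CD45+ group differed more in some members than in others. The SD of log2 CPM over the 4 anti-Dll4 libraries was 0.0418 for Spi1, smaller than for all but 0.776% of the 6186 genes at 20 CPM or more, whose median SD was 0.261. In the same libraries it was 0.457 for Cebpb, 0.46 for Cebpd, 0.502 for Maf, 0.519 for Irf5 and 0.628 for Irf8, and 86.4 to 95.6% of those genes had a smaller SD. Over the 4 IgG libraries, where the median SD of 6250 genes was 0.224, it was 0.218 for Irf8, 0.235 for Spi1, 0.242 for Irf5, 0.292 for Cebpd and 0.435 for Cebpb. For Maf it was 2.38, above 99.7% of genes, with the highest library 36.9-fold over the lowest. Without IgG replicate 1 the SD over the other 3 IgG libraries was 0.593 for Maf, above 98.3% of genes, and 0.0882 for Cebpb, above 18.7%. Irf8, Irf5 and Cebpd thus spread more under anti-Dll4 than under IgG, Cebpb slightly more, and Spi1 and Maf less. For Maf most of that gap came from IgG replicate 1, since 0.593 without it lay near the 0.502 under anti-Dll4. No test of the spreads was run.

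The libraries that carried the spread differed from gene to gene. Anti-Dll4 replicate 2 held the most Cebpb, Irf8 and Irf5 of its group and the least Cebpd, Maf and Spi1. Anti-Dll4 replicate 1 held the least Cebpb and Irf5 and the most Cebpd and Maf, and its immediate early sum, 624 CPM, was the lowest of the 8 libraries. IgG replicate 1 held the least Cebpb, Irf8, Irf5 and Maf of its group, with log2 ratios to the median of the 8 libraries of -0.6, -0.02, -0.12 and -4.14, while Spi1 was at 0.04 and Cebpd at 0.01. Macrophage markers were low in that library too: Csf1r had 6.52 CPM, against 46.2 to 68.9 CPM in the other IgG libraries, and C1qb had 31.7 CPM, against 511 to 736 CPM. Adgre1, which encodes the macrophage antigen F4/80, had 3 counts there, against 365 to 713 in the other IgG libraries. Mrc1, a mannose receptor of macrophages, had 29 counts there, against 1102 to 2679. Spi1 thus stood at its usual level in the library where Maf and macrophage markers were low, in 1 library with no repeat. Its megakaryocyte and platelet sum of 114 CPM was also below the 295 to 356 CPM of the other IgG libraries.

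**Figure D4:**
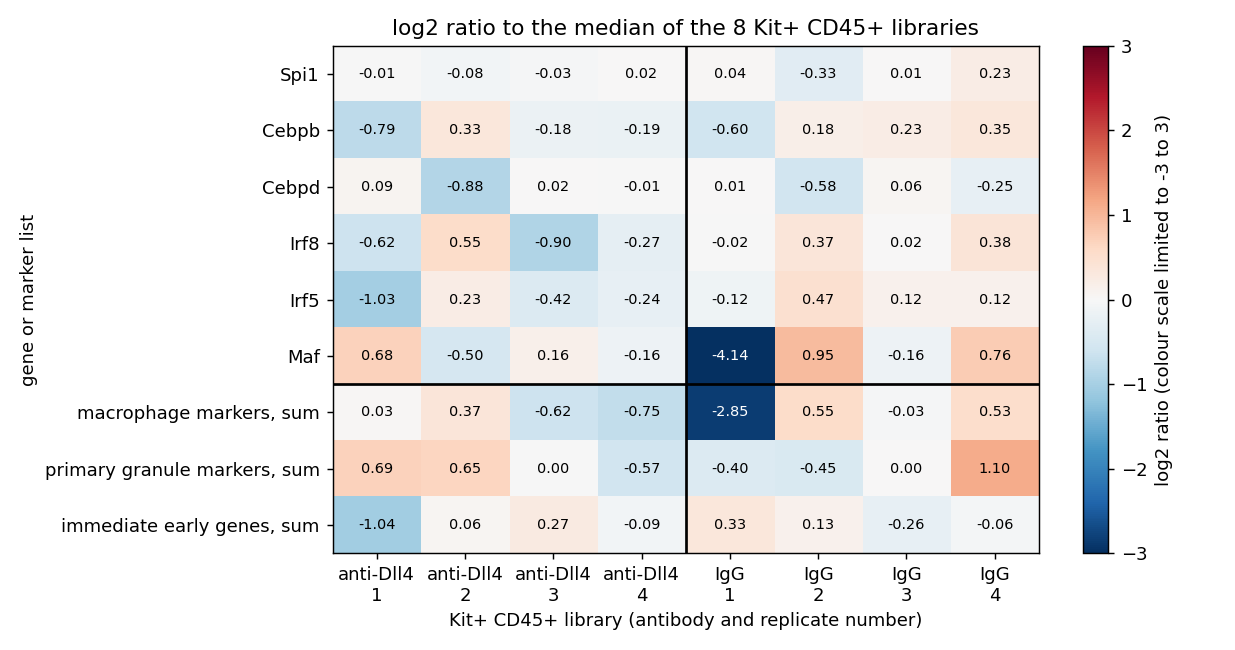
Log2 ratio to the median of the 8 Kit+ CD45+ libraries (colour, with the value in each cell) for the 6 tested members and 3 summed marker lists (rows), with the colour scale limited to -3 to 3, in anti-Dll4 libraries 1 to 4 and IgG libraries 1 to 4 (columns). Maf, at -4.14, and the macrophage sum are lowest in IgG library 1, where Spi1 is at 0.04.

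Ratios between lineage factors within a library did not separate the antibodies. In Kit+ CD45+ cells the log2 ratio of Spi1 to Cebpa averaged 9.42 ± 1.25 under anti-Dll4 and 8.64 ± 0.34 under IgG (SD, n = 4 each; exact two-sided permutation p = 0.286, adjusted p = 0.286 over 3 ratios). The ratio of Irf8, a monocyte factor, to Cebpe, a granulocyte factor, averaged 5.94 ± 1.93 under anti-Dll4 and 7.36 ± 0.83 under IgG (exact permutation p = 0.257, adjusted p = 0.286). That of Spi1 to Gata1, the erythroid and megakaryocyte factor that opposes PU.1, averaged 3.44 ± 0.6 under anti-Dll4 and 5.61 ± 3.4 under IgG (exact permutation p = 0.143, adjusted p = 0.286). IgG replicate 1 carried the last difference, at 10.67 with no Gata1 count, against 3.31 to 4.24 in the other IgG libraries and 2.81 to 4.12 under anti-Dll4. Without that library, left out alone after the data were seen, the ratio of Spi1 to Gata1 averaged 3.44 ± 0.6 under anti-Dll4 (n = 4) and 3.93 ± 0.53 under IgG (n = 3; exact permutation p = 0.286, adjusted p = 0.286). The smallest p that 4 against 4 libraries allow is 0.0286. The ratios to Cebpa and Cebpe set a member against one with 0 to 21 counts per library and depend on the prior count of 2. So does the ratio of Spi1 to Gata1 in IgG replicate 1, and with it the IgG mean of 5.61.

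Gata1 was lowest in Kit+ CD45+ cells, where Spi1 was highest. It had 17.7 to 41.1 CPM under anti-Dll4 and 0 to 24.4 CPM under IgG in Kit+ CD45+ cells, and it averaged 172 ± 35.8 and 149 ± 48.0 CPM in Kit+ CD45- cells, and 385 ± 6.5 and 391 ± 52.8 CPM in Kit- CD41+ CD45- cells. Of 8 factors of the erythroid and megakaryocyte branch, 6 were lower and 2 higher in Kit+ CD45+ than in Kit+ CD45- cells under anti-Dll4, and 6 were lower and 0 higher under IgG. Over all genes 12.6% were lower and 16.6% higher under anti-Dll4, and 9.18% lower and 10.0% higher under IgG. Under IgG, Klf1, the erythroid Krüppel-like factor, averaged 10.2 ± 7.72 CPM in Kit+ CD45+ and 217 ± 91.4 CPM in Kit+ CD45- cells (log2 difference -4.42, SE 0.5, adjusted p = 7.5e-07). Gfi1b, a repressor of the same branch, averaged 40.9 ± 16.9 and 191 ± 71.4 CPM (-2.22, SE 0.29, adjusted p = 4.94e-06), and Tal1 averaged 10.7 ± 1.92 and 39.0 ± 14.2 CPM (-1.86, SE 0.25, adjusted p = 9.71e-06), in Kit+ CD45+ and Kit+ CD45- cells.

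Relatives of the members were called in both directions. Of 21 further C/EBP, IRF, MAF and PU.1 relatives, 16 were tested, and 4 were higher and 2 lower in Kit+ CD45+ than in Kit+ CD45- cells under anti-Dll4, and 3 higher and 1 lower under IgG, with median log2 differences of 0.45 and 0.55. Over all genes 16.6% were higher and 12.6% lower under anti-Dll4, 10.0% higher and 9.18% lower under IgG, with medians of 0.1 and 0.04, and the relatives' counts, not far from those shares, are not read as a result about them. Under IgG, Hlf, a zipper factor of stem cells, averaged 14.1 ± 7.5 CPM in Kit+ CD45+ and 2.12 ± 0.981 CPM in Kit+ CD45- cells (log2 difference 2.73, SE 0.58, adjusted p = 0.00146). Irf2, a repressor of interferon genes, differed by 1.05 under IgG (SE 0.23, adjusted p = 0.00215), and under anti-Dll4 it averaged 64.1 ± 23.6 and 23.4 ± 4.14 CPM (1.45, SE 0.23, adjusted p = 5.96e-05). Nfil3, a zipper factor of innate lymphocytes, averaged 84.8 ± 32.1 and 35.0 ± 20.9 CPM (1.27, SE 0.34, adjusted p = 0.0105). Ddit3, the stress-induced C/EBP homologue CHOP, was the one that fell under IgG, to 48.6 ± 14.5 CPM in Kit+ CD45+ cells, against 145 ± 56.3 CPM in Kit+ CD45- cells (-1.58, SE 0.35, adjusted p = 0.00227).

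Of 25 other myeloid transcription factors, 14 were higher and 0 lower in Kit+ CD45+ than in Kit+ CD45- cells under anti-Dll4, and 9 higher and 0 lower under IgG, with median log2 differences of 1.45 and 0.92. Over all genes 16.6% were higher and 12.6% lower under anti-Dll4, and 10.0% higher and 9.18% lower under IgG. Under IgG, Batf, an AP-1 factor, averaged 26.2 ± 7.77 CPM in Kit+ CD45+ and 5.85 ± 2.57 CPM in Kit+ CD45- cells (log2 difference 2.17, SE 0.34, adjusted p = 5.25e-05). Tfec, a macrophage relative of Mitf, averaged 32.5 ± 18.8 and 3.46 ± 2.53 CPM (3.2, SE 0.49, adjusted p = 5.28e-05). Runx1, which hemogenic endothelium needs to form blood, averaged 87.8 ± 25.8 and 38.2 ± 15.2 CPM (1.2, SE 0.24, adjusted p = 0.000808), and Fosl2 averaged 11.1 ± 1.34 and 4.52 ± 2.65 CPM (1.29, SE 0.32, adjusted p = 0.00551). Under IgG, Runx1 was lower in Kit+ CD45+ than in Kit- CD41+ CD45- cells, which averaged 148 ± 16.6 CPM (-0.75, SE 0.23, adjusted p = 0.0132). Under anti-Dll4 it did not pass there (-0.45, SE 0.23, adjusted p = 0.134). Against Kit- CD41+ CD45- cells 16 of the 25 were higher and 1 lower under anti-Dll4, and 15 higher and 2 lower under IgG. The shares of all genes were 20.4% higher and 17.3% lower under anti-Dll4, and 19.7% and 17.5% under IgG.

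Of 28 cytokine receptors and target genes of these factors, 22 were higher and 0 lower in Kit+ CD45+ than in Kit+ CD45- cells under anti-Dll4, and 19 higher and 0 lower under IgG, with median log2 differences of 3.29 and 2.87. Over all genes 16.6% were higher and 12.6% lower under anti-Dll4, and 10.0% higher and 9.18% lower under IgG. Under IgG, Fcgr3, an Fc receptor, averaged 330 ± 180 CPM in Kit+ CD45+ and 9.25 ± 4.31 CPM in Kit+ CD45- cells (log2 difference 5.15, SE 0.53, adjusted p = 1.91e-07). Cd14, a co-receptor for lipopolysaccharide, averaged 185 ± 127 and 0.147 ± 0.173 CPM (adjusted p = 2.26e-07). Fcgr1, the high-affinity Fc receptor, averaged 30.2 ± 17.9 CPM in Kit+ CD45+ cells, at least 86.2-fold above a floor of 3 counts per library, and had no count in Kit+ CD45- IgG libraries. Against Kit- CD41+ CD45- cells 14 of the 28 were higher and 4 lower under anti-Dll4, and 17 higher and 4 lower under IgG. Over all genes 20.4% were higher and 17.3% lower under anti-Dll4, and 19.7% higher and 17.5% lower under IgG. The counts of lower genes, near those shares, are not read as a result about them.

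Hydrocortisone was in the medium of every group, and 8 genes of the glucocorticoid response were counted as well. Of these, 4 were higher and 0 lower in Kit+ CD45+ than in Kit+ CD45- cells under anti-Dll4, and 2 higher and 0 lower under IgG, with medians of 1.04 and 0.8. Over all genes 16.6% were higher and 12.6% lower under anti-Dll4, and 10.0% higher and 9.18% lower under IgG, with medians of 0.1 and 0.04. With 8 genes, these counts are not read as a result about the response. Under IgG, Dusp1, a phosphatase of MAP kinases, averaged 286 ± 113 CPM in Kit+ CD45+ and 119 ± 15.3 CPM in Kit+ CD45- cells (log2 difference 1.27, SE 0.29, adjusted p = 0.00269). Sgk1, a kinase, averaged 148 ± 14.5 and 62.2 ± 39.6 CPM (1.25, SE 0.3, adjusted p = 0.00486), while Klf9 (adjusted p = 0.0961) and Cdkn1a (adjusted p = 0.169) did not pass. None of the 5 lists had a gene called between anti-Dll4 and IgG in any population.

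The genes most like each member over the 24 libraries were found by the SD of the log2 ratio between them, among 10276 candidates, as a description with no test. For Spi1 they included Apbb1ip (SD 0.501) and Capg (0.506). For Cebpb they were Smagp (0.441), the member Irf5 (0.453) and Apoe (0.484), and for Irf5 they were Rnf130 (0.36), Capg (0.375) and Grn (0.417). For Cebpd they were Idh2 (0.284), Cln3 (0.33) and Ncoa7 (0.331). Maf stood nearest to Lgmn (0.736), Csf1r (0.794) and Clec12a (0.802), of which Lgmn and Csf1r are macrophage markers. For Irf8 the nearest were Arid5a (1.31), Gpr84 (1.32) and Cytip (1.33). Irf8 had counts in 6 of 8 Kit+ CD45- and 4 of 8 Kit- CD41+ CD45- libraries. Its ratios there depend on the prior count of 2, so its larger SDs do not show that it lacks genes of like pattern. Between members the SD ran from 0.453 for Cebpb with Irf5 to 2.71 for Cebpd with Irf8. All these values share the same libraries and the step between populations.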

How the data were processed

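Sorted CD31+ cells of mouse embryos were measured by polyA RNA-seq from cDNA amplified by long-distance PCR, in 24 libraries (3 populations, 2 antibodies, 4 libraries per group). Counts per gene are the authors' deposited raw counts, and the deposited log2 values equal log2 of the count over a size factor plus 1, within 5.2e-14. The submitters' processing notes name CASAVA 1.4, FastQC, STAR, HTSeq, DESeq2 and mm10, without their settings. The log2 table gave gene names only, and 1 library column in it that belongs to no listed sample was not used. The counts were tested with edgeR 4.0.16 in R 4.3.3 (trimmed mean of M-values scaling, filterByExpr, robust quasi-likelihood, all 24 libraries in 1 fit with 18 residual degrees of freedom), with Benjamini-Hochberg adjustment over the 15618 genes that passed the filter and a threshold of 0.05. Every adjusted p of a log2 difference is from this test unless DESeq2 is named, and intervals are 95%. The SE is the absolute log2 difference over the square root of the F statistic of this test. Intervals are symmetric, from that SE and a t quantile with 18 degrees of freedom. SEs and intervals are thus approximate, above all where a group has few counts. CPM used the scaled library sizes, which ran from 4573940 to 15032360, against totals of 8718351 to 11379830 counts before scaling. The scaling factors differed by population. They were 1.199 to 1.37 in Kit+ CD45+, 0.525 to 1.104 in Kit+ CD45- and 0.886 to 1.031 in Kit- CD41+ CD45- libraries. The floor of 3 counts covers counting error only, and PCR copies are not independent molecules. The code was tested on simulated data. Alternatives were upper-quartile scaling, the size factors of DESeq2, no filter, DESeq2 1.42.0, a replicate block and leaving out libraries. All 8 members were named with their values, and of each fixed list the 4 genes with the smallest p in the IgG comparison of Kit+ CD45+ with Kit+ CD45- cells, except 1 gene that is not reported here. The members and lists were chosen with earlier results of these data known.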

Additional observations from a re-analysis of the deposited data

Results flagged for a closer look

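In 4 of 43 groups of 4 libraries examined, 1 library stood apart from the other 3 by Dixon's criterion at the 95% level. Chance meets it in about 1 in 20 groups of continuous values, which does not apply to 3 of these 4, where 1 or 2 counts stand beside no count in the other 3 libraries and meet it by construction. Cebpd was lowest in Kit+ CD45+ anti-Dll4 replicate 2, at 43.2 CPM, against 79.4 to 85.2 CPM in the other 3 libraries of that group. Cebpa in Kit+ CD45- IgG replicate 2 was at 0.137 CPM, which is 1 count, with none in the other 3 libraries. Cebpe in Kit+ CD45- anti-Dll4 replicate 3 was at 0.2 CPM, which is 2 counts, and in Kit+ CD45- IgG replicate 1 at 0.0922 CPM, which is 1 count, with none in the other libraries of these groups.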

How the results depend on the processing

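All 6 tested members stayed higher in Kit+ CD45+ cells than in each other population under upper-quartile scaling, the size factors of DESeq2, no filter, DESeq2 and both blocks, and with single libraries left out. The exception is Maf against Kit+ CD45- cells under IgG without the libraries numbered 2. No member was called between antibodies under any of these. In Kit+ CD45- against Kit- CD41+ CD45- cells under IgG, 1 member was called without the filter and 1 with either block, in place of 2. There Maf was lost at 2.08 (adjusted p = 0.101) without the filter, 2.12 (0.059) with the replicate block by number and 2.22 (0.0835) with the block by antibody and number. The labels do not say what the numbers share. Same-numbered deviations of anti-Dll4 and IgG libraries correlated at -0.147 to 0.0999 over 12 pairs, none over 0.1. Within 1 antibody, those of populations with the same number correlated at -0.0637 to 0.197 over 24 pairs, 6 of them over 0.1. The Ddx3y counts tie the 3 anti-Dll4 libraries numbered 1 to each other. Libraries of 1 antibody and number may thus share a source, and the block by antibody and number bears on the Maf call. Genes called for anti-Dll4 were 14 by DESeq2 and 0 without the filter in Kit+ CD45+ cells (1 in edgeR), 75 by DESeq2 in Kit+ CD45- cells (0), 2 by DESeq2, 1 without the filter and 1 with the block by number in Kit- CD41+ CD45- cells (0), 31 and 1 for the mean effect by DESeq2 and without the filter (0), and 25, 0 and 1 for the difference between populations by DESeq2, without the filter and with the block by number (4). The cause of these shifts was not tested. Irf5 turned to 0.01 in Kit+ CD45- cells between antibodies under upper-quartile scaling, and Cebpd to -0.05 in Kit+ CD45- against Kit- CD41+ CD45- cells under IgG without the filter. Upper-quartile scaling moved the median of all genes between those populations to 0.16 under IgG and 0.21 under anti-Dll4.

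With libraries left out, genes called for anti-Dll4 ran from 0 to 1 in Kit+ CD45+, 0 to 67 in Kit+ CD45-, 0 to 1 in Kit- CD41+ CD45- cells, 0 to 2 for the mean and 0 to 14 for the difference. Genes called between Kit+ CD45+ and Kit+ CD45- cells ran from 1551 to 3397 under IgG and 2351 to 4950 under anti-Dll4. Members called between Kit+ CD45- and Kit- CD41+ CD45- cells ran from 0 to 2 under each antibody. Antibody differences that changed sign ran, in Kit+ CD45+ cells, from -0.12 to 0.06 for Spi1, -0.74 to 0.45 for Maf and -0.09 to 0.2 for Cebpd. In Kit+ CD45- cells they ran from -0.16 to 0.14 for Irf5 and -2.84 to 0.03 for Irf8. In Kit- CD41+ CD45- cells they ran from -0.37 to 0.42 for Spi1, -0.16 to 0.97 for Maf, -2.23 to 0.87 for Irf8 and -0.02 to 0.17 for Cebpd, and for the mean from -0.03 to 0.17 for Spi1, -0.17 to 0.08 for Cebpb and -0.09 to 0.03 for Cebpd. Between Kit+ CD45- and Kit- CD41+ CD45- cells they ran from -0.45 to 0.1 for Spi1, -0.08 to 0.1 for Cebpd and -0.01 to 0.24 for Irf5 under IgG, and from -0.43 to 0.26 for Spi1 under anti-Dll4. Cebpa and Cebpe, at 0 to 21 counts per library, are limited by depth. Without the filter Cebpa was above Kit- CD41+ CD45- cells (adjusted p = 0.0358 under anti-Dll4 and 0.016 under IgG), as was Cebpe under anti-Dll4 (0.0178) and not under IgG (0.0993). Against Kit+ CD45- cells neither passed (Cebpa 0.0625 under anti-Dll4 and 0.114 under IgG, Cebpe 0.151 and 0.398).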
